A study of Mus musculus with 10 samples.

Results

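The collapsin response mediator proteins (CRMPs) are a family of 5 genes in the mouse, Crmp1, Dpysl2, Dpysl3, Dpysl4 and Dpysl5. They were chosen by name as a gene family, with earlier results of these data known. All 5 were found among the 6147 genes of the deposited table. The table gives TPM, read abundance per unit of transcript length, scaled so that each library has the same total. It holds 10 RNA libraries of whole neocortex from CD1 wild-type mice, with 2 libraries at each of E12.5, E14, E15.5, E17 (days of gestation) and P0 (the day of birth). CD1 is an outbred strain, no group carried an allele or received a treatment, and the labels tell the groups apart by age alone. The submitters call the libraries of a stage biological duplicates but do not say whether a library is 1 animal or a pool, so p-values measure the spread between these libraries.

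CRMPs are cytosolic phosphoproteins of growing neurons. They are related in sequence to dihydropyrimidinase, an enzyme of pyrimidine breakdown, but lack its activity, and they assemble into tetramers that bind tubulin, actin and motor proteins. The family was found through growth cone collapse: semaphorin 3A, read by neuropilin and plexin receptors, leads kinases such as Cdk5 and Gsk3b to phosphorylate CRMPs, which lowers their hold on tubulin. In developing cortex the proteins are known from young neurons that extend axons and dendrites, and they are widely used as markers of such cells.

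The bases before the start are shown for Crmp1 and Dpysl5 alone, since a table of RefSeq promoters held only these 2 of the 5 genes. Both lie on the same chromosome. Crmp1 was under Dpysl5 in the 8 embryonic libraries and above it in both P0 libraries. A link between that order and these bases was not tested. Crmp1 spans chr5:37241940-37292133 (GRCm38, plus strand, GENCODE M21) and overlaps Evc on the other strand. Dpysl5 spans chr5:30711564-30799375 on the plus strand and overlaps the model Gm42764 on the same strand. No source used here says how such overlaps were counted. The promoter table from RefSeq (GRCm38.p6) matched 2 of the 5 genes, with 2 starts for Crmp1. Capitals mark GGGCGG, the core of a GC box bound by Sp factors, and TGACG, the core of a cyclic AMP response element, on either strand. The windows are chr5:37241808-37241939 for the first Crmp1 start, cut short before annotated exons, chr5:37245514-37245763 for the second, and chr5:30711314-30711563 for Dpysl5, each 5′ to 3′ on the plus strand.
Crmp1, first start: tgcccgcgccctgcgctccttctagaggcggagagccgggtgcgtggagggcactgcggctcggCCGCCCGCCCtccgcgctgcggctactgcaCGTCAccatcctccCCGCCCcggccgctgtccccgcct
Crmp1, second start: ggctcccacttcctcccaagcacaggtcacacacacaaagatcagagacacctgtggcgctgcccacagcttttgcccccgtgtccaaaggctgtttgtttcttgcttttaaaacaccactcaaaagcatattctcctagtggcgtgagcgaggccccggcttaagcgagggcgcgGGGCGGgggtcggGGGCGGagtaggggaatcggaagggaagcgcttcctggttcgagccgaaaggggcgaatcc
Dpysl5: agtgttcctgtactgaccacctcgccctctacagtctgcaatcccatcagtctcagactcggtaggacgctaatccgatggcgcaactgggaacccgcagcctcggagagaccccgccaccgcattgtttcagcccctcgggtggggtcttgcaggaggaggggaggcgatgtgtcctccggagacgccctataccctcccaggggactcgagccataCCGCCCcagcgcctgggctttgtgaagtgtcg
Within 250 bases before each start, GGGCGG occurred 5 times at the first Crmp1 start, where matches overlap and 2 lie in the bases not printed, 2 times at the second and 1 time at Dpysl5. Of all 32851 promoter windows of that length, 32.7% held it. TGACG occurred 1 time, at the first Crmp1 start, against 17.8% of all windows. The E-boxes CAGATG and CAGCTG (14.4% and 13% of windows), CCAAT (33.8%) and TATAAA (12.4%) had 0 matches in the 3 windows. G and C made up 75.6%, 59.6% and 62.8% of the windows, against a median of 52.4%. These matches describe letters and are not evidence of binding.

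The listed genes summed to 68.9% to 71.7% of all TPM per library, and no source used here gives read numbers. Of 13 neocortex marker genes 8 were in the table, summing to 1059 to 1699 TPM per library. The libraries of E17 stood apart: the SD over genes of the difference between replicates, in log2(TPM + 1), was 0.285 there and 0.088 to 0.176 at the other stages. All 5 CRMP genes were higher in replicate 1 than in replicate 2 at E17, and also at E14, against 0 of 5 at E15.5 and 1 of 5 at both E12.5 and P0. These counts are of TPM as deposited. By median of ratios, the scaling factor was 1.03 for replicate 1 of E17 and 0.935 for replicate 2. The share of all genes higher in replicate 1 was not computed, so nothing particular to the family is read from the counts. The largest gap between replicates among the 5 genes was that of Dpysl5 at E17, 1.36-fold. Results that use E17 are therefore also given without a library of it where the call changed.

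Over the whole span all 5 genes rose. Expression was tested with limma on log2(TPM + 1) in 6048 genes that averaged 1 TPM or more, with Benjamini-Hochberg adjustment over all of them. From E12.5 to P0, 5 of 5 were called higher at an adjusted p under 0.05, where 27.1% of all genes tested were called higher and 51% lower. The rise ranged from 1.79-fold for Dpysl4 to 4.07-fold for Crmp1 on that scale. The median of all genes tested was -0.27 on the log2 scale over this span, and median-of-ratios scaling moved it to -0.01. Relative to that median, the rises were 2.30 for Crmp1, 1.95 for Dpysl5, 1.76 for Dpysl3, 1.59 for Dpysl2 and 1.11 for Dpysl4. All 5 genes also differed among stages by limma's F test, as did 82.9% of all genes tested. In whole tissue, a change in the number of cells of a type and a change in RNA per cell cannot be told apart.

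**Figure D1:**
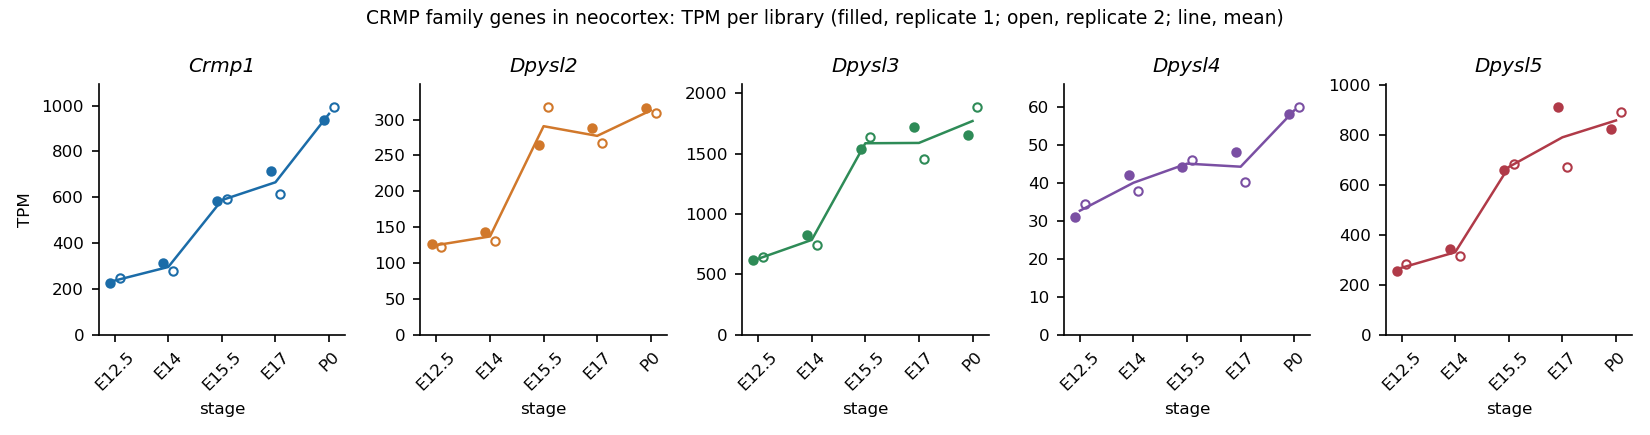
TPM of each CRMP gene (vertical axis, from 0, with its own scale per gene) at the 5 stages (horizontal axis). Filled points are replicate 1, open points replicate 2, and lines join stage means. All but Dpysl4 step up between E14 and E15.5, and Crmp1 and Dpysl4 are highest in both P0 libraries.

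Dpysl3 (CRMP4), which binds and bundles actin filaments in growth cones, was the most abundant. It measured 617 and 641 TPM at E12.5, 827 and 743 at E14, 1538 and 1635 at E15.5, 1721 and 1457 at E17, and 1656 and 1885 at P0. It was the highest of the 5 in 10 of 10 libraries, and it ranked between 29th and 179th of the 6147 genes. The libraries of E12.5, E14 and E15.5 did not overlap, whereas those of E17 overlapped both E15.5 and P0. Its change from E12.5 to P0 was 1.49 (SE 0.11, limma adjusted p = 1.37e-07). Between E15.5 and P0 the difference was 0.16 (SE 0.11) and did not pass (limma adjusted p = 0.244). Dpysl3 spans chr18:43320984-43438286 on the minus strand (GRCm38).

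Dpysl5 (CRMP5), the most divergent member, is known to bind tubulin and to restrain the outgrowth that Dpysl2 favours. It measured 254 and 283 TPM at E12.5, 345 and 317 at E14, 662 and 684 at E15.5, 912 and 671 at E17, and 824 and 895 at P0. The E17 libraries enclosed both libraries of P0, so the order of the last stages cannot be read from them. It was the second of the family in 8 of 10 libraries and ranked between 100th and 563rd in the table. Its rise from E12.5 to P0 was 1.68 (SE 0.13, limma adjusted p = 1.93e-07). From E15.5 to P0 it rose by 0.35 (limma adjusted p = 0.0366), a call that was lost in 10 of 21 alternatives, with adjusted p between 0.000312 and 0.179.

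Crmp1, which relays semaphorin 3A signals in cortical neurons when Cdk5 or Fyn phosphorylates it, had the largest rise of the family. It measured 224 and 248 TPM at E12.5, 313 and 277 at E14, 582 and 593 at E15.5, 714 and 616 at E17, and 935 and 992 at P0. No 2 neighbouring stages overlapped, and every library of a later stage was above every library of an earlier one. Its change from E12.5 to P0 was 2.03 (SE 0.10, limma adjusted p = 3.59e-09). Unlike Dpysl3, it rose again late: the change from E15.5 to P0 was 0.71 (limma adjusted p = 0.000108). Crmp1 was the second of the family in 2 of 10 libraries, those of P0, and the third in the other 8. The order of the members, this exchange included, rests on the gene lengths behind the TPM, which no source used here states.

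Dpysl2 (CRMP2), the member best known for carrying tubulin dimers to growing microtubule ends and for linking cargo to kinesin, ranked above Dpysl4 alone in 10 of 10 libraries. It measured 127 and 123 TPM at E12.5, 144 and 130 at E14, 264 and 317 at E15.5, 288 and 267 at E17, and 316 and 310 at P0. The libraries fall into a low pair of stages, E12.5 and E14, and 3 later stages that lie close together, with the higher E15.5 library above both libraries of P0. The change from E12.5 to P0 was 1.32 (SE 0.09, limma adjusted p = 1.17e-07), and that from E15.5 to P0 was 0.11, which did not pass (limma adjusted p = 0.343). Dpysl2 spans chr14:66802864-66868688 on the minus strand.

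Dpysl4 (CRMP3), known from dendrite growth in the hippocampus and cerebellum, was the lowest of the family in 10 of 10 libraries. It measured 31.0 and 34.3 TPM at E12.5, 42.1 and 37.9 at E14, 44.0 and 46.0 at E15.5, 48.2 and 40.2 at E17, and 58.2 and 59.9 at P0. The E17 libraries overlapped E14 and enclosed E15.5, while both libraries of P0 were above all others. Its rise from E12.5 to P0 was 0.84 (SE 0.10, limma adjusted p = 1.57e-05). It ranked between 2240th and 3735th in the table, far below the other 4. Dpysl4 spans chr7:139086001-139102704 on the plus strand.

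The 4 neighbouring steps were then compared. From E12.5 to E14 both later libraries were above both earlier ones for 5 of 5 genes, as for 24.7% of all genes tested. Differences ran from 0.13 for Dpysl2 to 0.32 for Crmp1, yet 0 of 5 passed in limma, where 3.95% of all genes were called higher and 4.78% lower. Of the 5, 4 had an unadjusted p under 0.05 in limma. The share of all genes under that unadjusted cut was not computed, so nothing particular to the family is read from this count. The count depended on the E17 libraries, whose spread enters the estimate that all stages share: with either E17 library or both left out, 4 of 5 passed (Crmp1, Dpysl3, Dpysl4 and Dpysl5), with 29.2% to 29.3% of all genes called.

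From E14 to E15.5, 4 of 5 genes rose, each by about the same amount, where 18.4% of all genes were called higher and 33.3% lower. The fold was 1.99 for Crmp1, 2.11 for Dpysl2, 2.02 for Dpysl3 and 2.03 for Dpysl5, with limma adjusted p between 3.58e-06 and 4.51e-05. Dpysl4 was at 1.12-fold (log2 0.17, SE 0.10, limma adjusted p = 0.198). Its difference passed under 4 of 21 alternatives, at 0.26 with quantile normalization and 0.29 with median-of-ratios scaling. All 4 genes that rose lay above the 95th percentile of all genes for this step, 0.88, and Dpysl4 lay below it.

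Other cell types moved at the same step. Summed TPM of the meningeal markers in the table (5 of 7) went from 106 to 111 per library at E14 to 2.80 to 3.03 at E15.5. The choroid plexus markers (2 of 6) went from 1405 to 1517 down to 3.46 to 4.25, blood markers (3 of 10) from 1880 to 1975 down to 9.26 to 9.84, and vascular markers (2 of 8) from 9.68 to 10.35 down to 1.57 to 1.74. Dividing-cell genes (11 of 12) went from 1009 to 1059 down to 472 to 481, while young-neuron genes (13 of 16) went from 7083 to 7368 up to 13024 to 13074. None of these listed markers was at 0 in all libraries. Their part in the step of the CRMP genes was not tested.

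From E15.5 to E17, 0 of 5 genes passed in limma, where 14.4% of all genes were called higher and 10.6% lower. An unadjusted p under 0.05 was found for 0 of 5, a cut for which the share of all genes was not computed. Differences lay between -0.06 for Dpysl2 and 0.22 for Dpysl5. They hang on which E17 library is read: without replicate 2 of E17 the difference was 0.28 for Crmp1 and 0.44 for Dpysl5. Over single libraries left out, Crmp1 ran from 0.069 to 0.28 and Dpysl5 from -0.0035 to 0.44. A fit with 1 library at E17 is given as sizes only.

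From E17 to P0, Crmp1 and Dpysl4 rose, 2 of 5 members, where 12.9% of all genes were called higher and 28.8% lower. Crmp1 rose by 0.54 (SE 0.10, limma adjusted p = 0.00145) and Dpysl4 by 0.41 (SE 0.10, limma adjusted p = 0.00923). The call of Crmp1 held in all 20 alternatives. That of Dpysl4 was lost with array weights (limma adjusted p = 0.0954) and with only the 2 stages in the fit (limma adjusted p = 0.0717). Dpysl2 (0.17), Dpysl3 (0.16) and Dpysl5 (0.13) did not pass. Without replicate 1 of E17, Dpysl3 was at 0.28 and Dpysl5 at 0.36. Dpysl2 passed with median-of-ratios scaling (0.29, limma adjusted p = 0.0326). From E15.5 to P0, which does not use E17 as a group, 3 of 5 passed (Crmp1, Dpysl4 and Dpysl5), where 19.5% of all genes were called higher and 30.7% lower. Without replicate 1 of E15.5, or without replicate 2 of P0, Crmp1 alone passed.

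**Figure D2:**
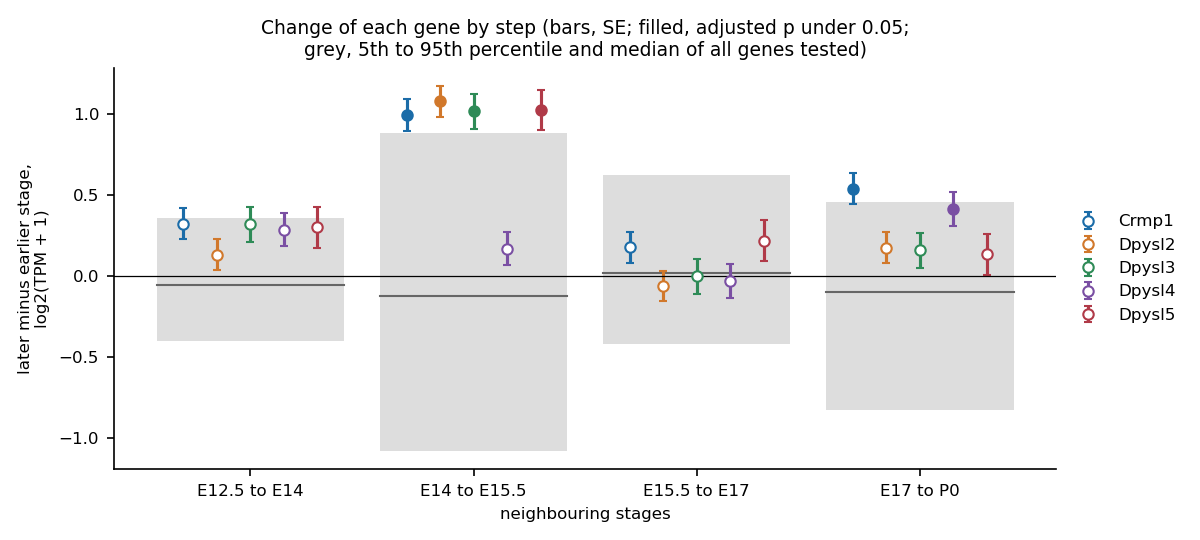
Change of each CRMP gene at the 4 neighbouring steps in log2(TPM + 1), later minus earlier stage (vertical axis), with SE bars. Filled points passed an adjusted p under 0.05, grey boxes span the 5th to 95th percentile of all 6048 genes, and grey lines are their medians. At E14 to E15.5, 4 points lie near 1, above the box, and Dpysl4 lies at 0.17.

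The family was next read as a whole. Summed over the 5 genes, TPM was 1291 ± 54.2 in E12.5 libraries and 1589 ± 117 in those of E14, then 3182 ± 131 at E15.5, 3368 ± 447 in the E17 libraries and 3966 ± 250 in those of P0 (mean ± SD, n = 2 each). Dpysl3 held 43.7% to 49.9% of the sum in every library. The share of Crmp1 lay between 17.9% and 20.2% in the 8 embryonic libraries and was 24.7% and 24.0% at P0. The share of Dpysl4 was 2.47% to 2.58% in the 4 libraries of E12.5 and E14 and 1.31% to 1.54% in the 6 later ones. Dpysl2 went from 10.1% and 9.25% at E12.5 to 8.34% and 7.48% at P0, with overlapping values between. Dpysl5 stayed between 20.3% and 22.0% in all libraries but replicate 1 of E17, at 24.8%. The composition of the family thus had a break for Dpysl4 before E15.5 and another for Crmp1 at P0.

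**Figure D3:**
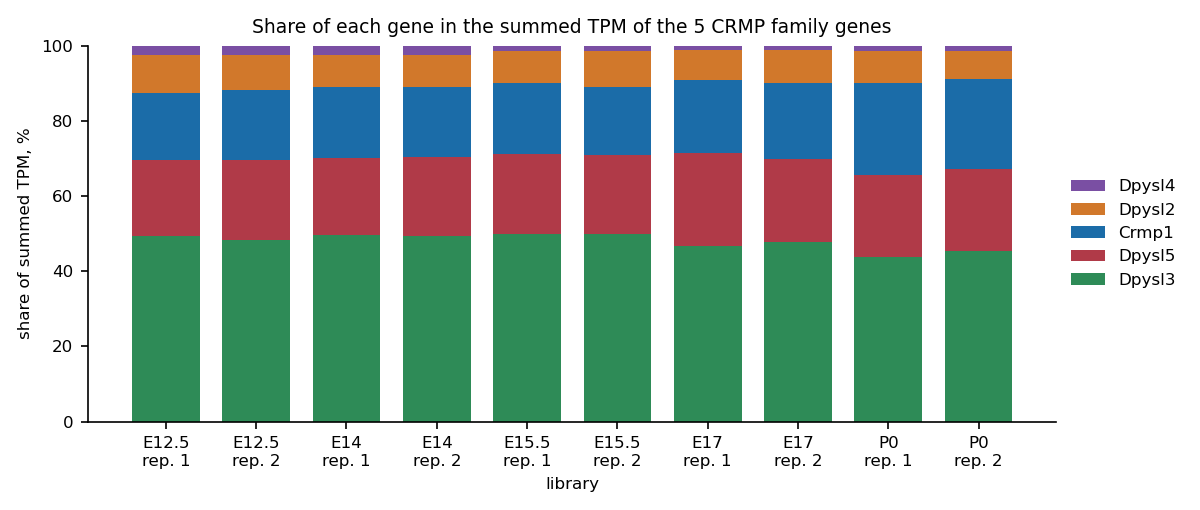
Share of each gene in the summed TPM of the 5 CRMP genes (stacked bars from 0 to 100%), 1 bar per library. The top band, Dpysl4, thins from about 2.5% to 1.4% between E14 and E15.5, and the band of Crmp1 widens to 23.9% or more in both P0 libraries.

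Whether members changed unequally was tested on the difference of log2(TPM + 1) between 2 genes within a library, in which library scaling largely cancels. Every one of 945 regroupings of the libraries into pairs was enumerated (exact permutation test of F among stages, smallest p 0.001058), with adjustment over the 10 pairs of members. The ratio differed among stages for 6 of 10 pairs, among them all 4 pairs that hold Dpysl4. The share of other gene pairs that would pass was not computed, and 82.9% of single genes differed among stages, so nothing particular to the family is read from the count.

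The ratio of Crmp1 to Dpysl4 moved the most. It was 2.82 in both libraries of E12.5, 2.87 and 2.84 at E14, 3.69 and 3.66 at E15.5, 3.86 and 3.90 at E17, and 3.98 and 4.03 at P0. The mean was higher at each later stage, and the stages did not overlap (exact permutation p = 0.00106, adjusted 0.0106). Dpysl3 to Dpysl4 was 4.27 and 4.18 at E12.5, 4.27 and 4.26 at E14, 5.09 and 5.12 at E15.5, 5.13 and 5.14 at E17, and 4.81 and 4.95 at P0. It was thus highest at E15.5 and E17 and lower again in both P0 libraries (exact permutation p = 0.00635, adjusted 0.0159). Dpysl2 to Dpysl4 and Dpysl4 to Dpysl5 had the same exact permutation p and shifted at the same step, by 0.91 and -0.85 between E14 and E15.5.

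Crmp1 to Dpysl3 stood between -1.46 and -1.24 in the 8 embryonic libraries and at -0.82 and -0.92 at P0 (exact permutation p = 0.0127, adjusted 0.0254). Crmp1 to Dpysl2 was 0.91 at E12.5 and 1.62 at P0 on average (exact permutation p = 0.0169, adjusted 0.0282). That call was lost without replicate 1 of E12.5, of E14 or of E17 and without replicate 2 of P0, with adjusted p of up to 0.0590. Crmp1 to Dpysl5 was negative in the 8 embryonic libraries, from -0.35 to -0.12, and positive at P0, at 0.18 and 0.15. It did not pass (exact permutation p = 0.106, adjusted 0.132), but it did without replicate 1 of E17 (adjusted 0.0441) or replicate 2 of E17 (adjusted 0.0233). Dpysl2 to Dpysl3 changed by -0.17 from E12.5 to P0, within a span of -2.60 to -2.27 over all libraries, and did not pass (exact permutation p = 0.423).

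**Figure D4:**
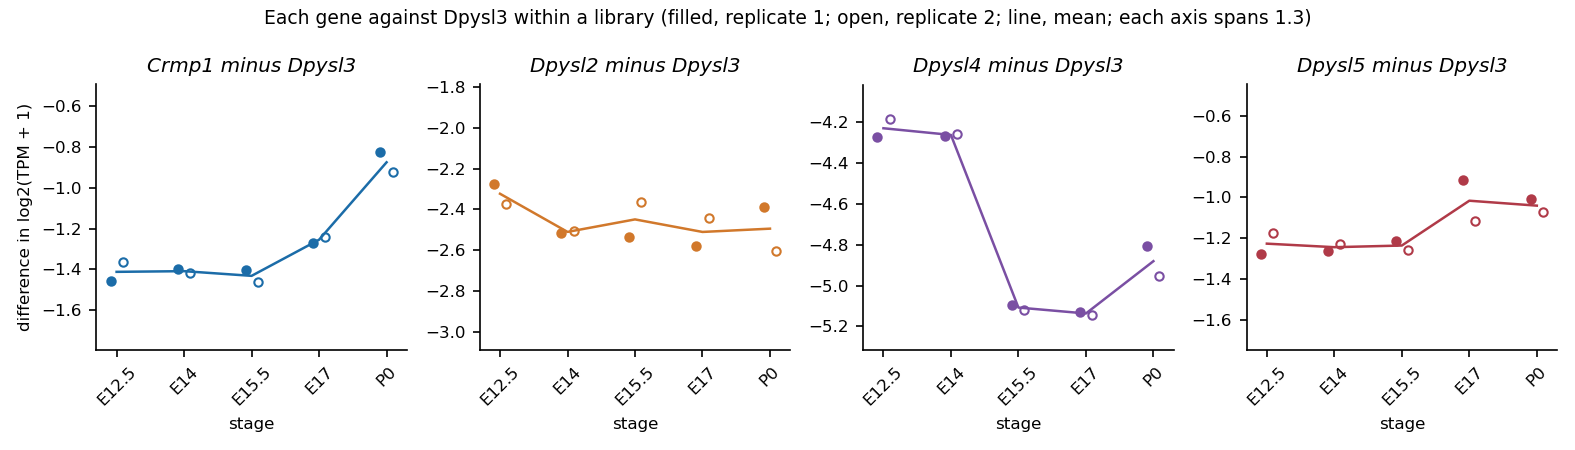
Difference in log2(TPM + 1) between each gene and Dpysl3 in the same library (vertical axes, each spanning 1.3) by stage, with filled points for replicate 1, open points for replicate 2 and lines through means. Dpysl4 drops by 0.85 between E14 and E15.5, Crmp1 climbs by 0.38 between E17 and P0, and Dpysl2 keeps within -2.60 to -2.27.

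Since the CRMP genes are neuronal, they were also set against the median of 13 young-neuron genes such as Dcx and Tubb3, and of 15 synapse and maturation genes such as Syn1 and Snap25, as descriptions. Against the young-neuron genes, P0 minus E12.5 was 0.99 for Crmp1, 0.64 for Dpysl5, 0.45 for Dpysl3, 0.28 for Dpysl2 and -0.20 for Dpysl4. Against the synapse genes, the sign turned for the first 4, to -1.002, -1.35, -1.54 and -1.71, and Dpysl4 was at -2.19. The changes of 4 CRMP genes thus lay between those of the reference medians, and that of Dpysl4 lay under both medians. Single genes of the references varied widely. From E12.5 to P0 young-neuron genes ran from -0.63 (Elavl4) to 3.04 (Gap43) and synapse genes from 1.04 (Syn2) to 4.45 (Camk2b). Dpysl4, at 0.84, was within the young-neuron range. The median of the young-neuron genes was 8.14 at E12.5, 9.18 at E15.5 and 9.17 at P0, and that of the synapse genes 4.76, 6.57 and 7.79, in log2(TPM + 1). Of the 5 members, Crmp1 had the smallest gap to the change of the synapse list. The same median is taken from each member, so this order only repeats that of their own rises.

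**Figure D5:**
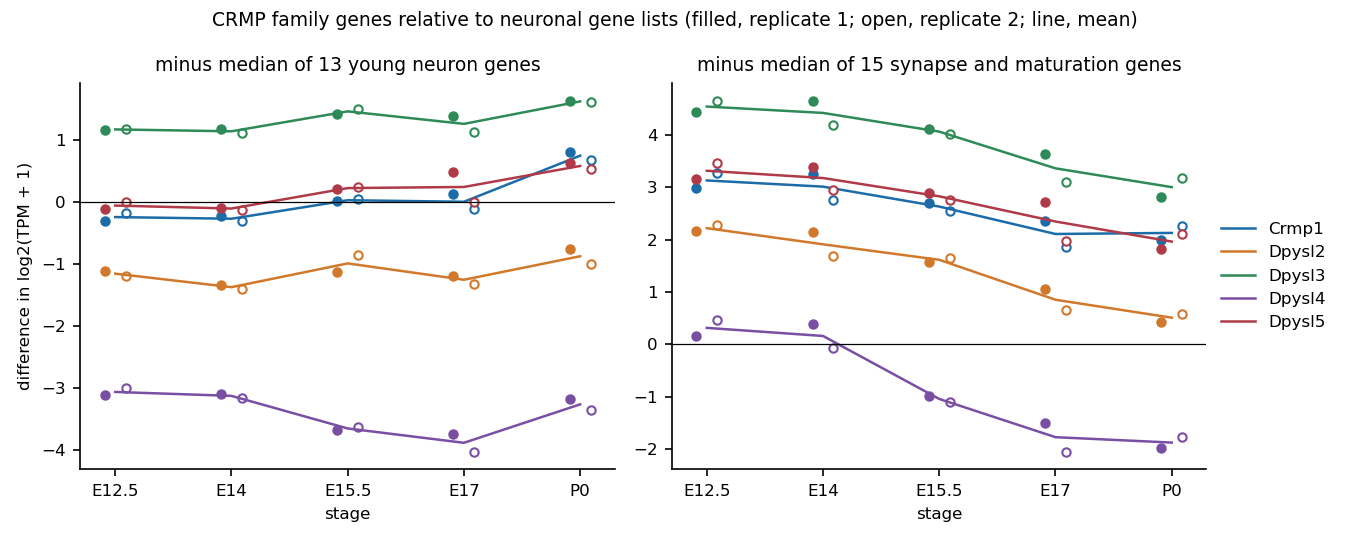
Each CRMP gene minus the median of 13 young-neuron genes (left) or of 15 synapse and maturation genes (right), in log2(TPM + 1), by stage. Filled points are replicate 1, open points replicate 2, and lines are means. On the left all but Dpysl4 end above their start, and on the right all 5 end lower.

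The genes that work with CRMPs were read from 4 lists. The semaphorin list had 13 of 22 genes in the table, and the ligand Sema3a itself was not among them. From E12.5 to P0, 5 rose, 4 fell and 4 did not pass, where 27.1% of all genes tested were called higher and 51% lower. The median was 0.20, against -0.27 over all genes tested. The highest was Chn1, a Rac-inactivating protein of axon guidance, at 68.6 TPM at E12.5 and 151 at P0 (1.13, SE 0.08, limma adjusted p = 1.05e-07). The lowest was the receptor Nrp2, at 33.2 and 7.74 TPM (-1.97, SE 0.16, limma adjusted p = 3.14e-07). Nrp1, the receptor that binds semaphorin 3A, was at 27.1 TPM at E12.5, 52.5 at E17 and 15.7 at P0. The tyrosine kinase Fyn, which phosphorylates Crmp1, rose by 0.63.

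Several semaphorin receptors were called lower at P0 than at E17. From E17 to P0, 0 of 13 list genes rose and 8 fell in limma, where 12.9% of all genes were called higher and 28.8% lower. Among those that fell were Nrp1 (-1.66), Nrp2 (-1.48), Plxna2 (-1.39) and Plxna4 (-1.05), while the receptor Plxnd1 (0.03) did not pass. The sizes depended on the E17 libraries: the median of the list was -0.71, but -0.34 without replicate 1 of E17 and -1.07 without replicate 2. Plxna4 was at -0.59 without replicate 1 and at -1.51 without replicate 2. Under median-of-ratios scaling 2 rose and 8 fell. Between E15.5 and E17, 7 of 13 rose, where 14.4% of all genes were called higher and 10.6% lower. The list median at that step was 0.50, against 0.01 over all genes. It was 0.22 without replicate 1 of E17 (all genes -0.05) and 0.81 without replicate 2 (all genes 0.09). Plxna4, a plexin that acts with Nrp1, was at 46.5 ± 0.97 TPM at E15.5, 101 ± 44.9 in the E17 libraries and 46.1 ± 3.28 in those of P0 (mean ± SD, n = 2), with the widest spread at E17.

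Of a list of genes that govern CRMP phosphorylation, mostly kinases and phosphatases, 15 of 17 were in the table. From E12.5 to P0, 9 rose, 3 fell and 3 did not pass, where 27.1% of all genes tested were called higher and 51% lower. The median was 0.31, against -0.27 over all genes tested. Camk2b, a calcium-dependent kinase that is also on the synapse list, was the highest, at 17.2 TPM at E12.5 and 396 at P0 (4.45, limma adjusted p = 2.77e-11). Cdk5, the priming kinase of Crmp1 and Dpysl2, was at 51.9, 64.3, 84.3, 88.9 and 117 TPM over the 5 stages and rose by 1.16 (SE 0.08, limma adjusted p = 1.31e-07). Gsk3b, which follows Cdk5 on Dpysl2, was called lower at -0.28 (limma adjusted p = 0.0326), a difference of -0.00 under median-of-ratios scaling. Its relative Gsk3a rose by 0.81. Rock1, a kinase of Dpysl2, was the lowest of the list at -0.997, and Rock2 fell by 0.63.

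Of the binding partners, 22 of 27 were in the table, and 14 rose, 6 fell and 2 did not pass from E12.5 to P0. Of all genes tested 27.1% were called higher and 51% lower. The median was 0.80, against -0.27 over all genes tested. The highest was Mapt, the axonal microtubule protein tau, at 86.6 TPM at E12.5 and 1048 at P0 (3.58, limma adjusted p = 1.39e-10). The lowest was the tubulin Tuba1b, at 565 and 236 TPM (-1.25, limma adjusted p = 1.79e-07). The neuronal tubulins Tubb2a (2.23), Tubb2b (1.12) and Tubb3 (1.55) rose, whereas Tubb5 (0.19) did not pass. Of kinesin-1, Kif5a rose by 2.24 and the light chain Klc1, which binds Dpysl2, by 1.196, while Kif5b was called lower at -0.31, or -0.04 under median-of-ratios scaling. Of the Wave complex that Dpysl2 carries, Wasf1 (1.52) and Cyfip2 (0.84) rose and Cyfip1 fell (-0.64). Tubb3 and Map2 of this list are also on the young-neuron list.

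At the step from E14 to E15.5, 14 of 22 partners rose and 4 fell, where 18.4% of all genes were called higher and 33.3% lower. With median-of-ratios scaling 14 rose and 2 fell. Tubb2a (1.16), Tubb3 (1.12), Kif5a (1.18), Tubb2b (0.97) and Trim46 (0.97), a protein of the axon's initial part, were near the 0.99 to 1.08 of the 4 CRMP genes that rose. Mapt was higher, at 2.09, and the other partners that rose lay lower, from 0.24 for Kif5c to 0.81 for Wasf1. The list median was 0.42, against -0.13 over all genes. Tuba1b (-0.69) and Rhoa (-0.23) fell. Their differences were -0.57 and -0.11 when scaled by median of ratios.

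Of 6 genes of pyrimidine synthesis and breakdown, 3 were in the table, Cad, Dhodh and Umps, all of synthesis. From E12.5 to P0, 0 rose and 2 fell, where 27.1% of all genes tested were called higher and 51% lower. Cad, the first enzyme complex of pyrimidine synthesis, fell by 1.94 and Umps by 1.15 on the log2 scale. Dhodh, at 0.03, did not pass, although it was called higher at 0.29 under median-of-ratios scaling. Dihydropyrimidinase itself (Dpys) was not among the listed genes, nor were Dpyd and Upb1. Breakdown, the pathway of the enzyme to which CRMPs are related, was thus not measured.

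For each member, the 3 genes outside the family with the smallest root-mean-square difference in log2(TPM + 1) over the 10 libraries, each gene centred on its mean, were taken from 5436 genes that averaged 10 TPM or more. Near Crmp1 were Pnmal1 (0.072) and Mapre2 (0.074), a microtubule end-binding protein. Mapre2, for one, was at 152, 186, 360, 467 and 643 TPM over the stages. Dpysl3 was nearest to Enc1, an actin-binding protein of neurons (0.060), then Tspyl4 and Ctnnd2. Dpysl5 was nearest to Arrb1 (0.058), a receptor adaptor, then Abr and Ctnnd2. Dpysl2 had less close neighbours, with Plcl2 (0.106), Dpf1 and Tspyl4. Dpysl4 was nearest to Fibp (0.076), Ykt6, a SNARE protein, and Ric8a. These names depend on the processing: with a pseudocount of 10, Pnmal1, Plcl2, Arrb1, Ctnnd2 and Ykt6 were no longer among the nearest 3, and without replicate 1 of E17 neither were Ctnnd2, Ykt6 and, for Dpysl2, Tspyl4.

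Within the family, Dpysl2 and Dpysl3 were the closest pair by this measure (0.101), then Dpysl3 and Dpysl5 (0.115), and Crmp1 and Dpysl4 the farthest (0.511). Likeness in expression was not ordered as likeness in sequence. Coding sequences of the longest GENCODE transcripts were 74.6% identical between Crmp1 and Dpysl2, the most alike by a small margin. Dpysl2 and Dpysl4 were at 74.0%, and Dpysl2 and Dpysl3, the closest in expression, at 73.8%. Identity was 61.6% to 63.4% between Dpysl5 and each other member. The coding sequences used differ in length, with 2058 bases for Crmp1, 2049 for Dpysl3 and 1716 for Dpysl2, so the aligned stretch differs between pairs. Dpysl5, the most divergent in sequence, was nearer to Dpysl3 in expression than Crmp1 was (0.213). No stretch of 50 bases was shared between transcripts of the 5 genes or with other genes (0 in each), so reads of that length would not be split between members.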

How the data were processed

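Polyadenylated RNA from CD1 neocortex was sequenced with TruSeq Stranded mRNA libraries, per the labels' protocols. The deposited values are TPM, scaled by the authors over more genes than are listed, per the file headers and the column sums. The submitters' processing notes name STAR, Subread and GRCm38.p5, without roles. The annotation and lengths behind the TPM are not stated in the sources used here. 0 columns lacked a sample.

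Genes with a mean under 1 TPM (99 of 6147) were left out, and log2(TPM + 1) was fitted with limma 3.58.1 (R 4.3.3) as 5 stage means, with 5 residual degrees of freedom and a variance trend. The median SE of a stage difference was 0.107. A fold on this scale understates changes of low genes. TPM are not counts, so depth is unknown and no count model was used. The scripts were tested on simulated data. Ratios of members used an exact permutation test. Alternatives were pseudocounts of 0.1 and 10, no filter, a minimum mean of 5 TPM, other scalings and weights, a replicate block, and each library left out. Leaving out both E17 libraries was chosen after seeing the data.

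The members and lists were chosen with earlier results of these data known. The text names the 5 members, the highest and lowest gene of each list, list genes where a list is described, and the 3 most alike genes per member, of which 1 is not reported here. Positions are from GENCODE M21 and promoters from RefSeq. Python 3.11.15, pandas 2.3.3 and matplotlib 3.10.9 were used.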

Additional observations from a re-analysis of the deposited data

How the results depend on the processing

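The 5 calls from E12.5 to P0 and the 4 from E14 to E15.5 held in 21 of 21 alternatives, the latter with 5 in some. From E12.5 to E14, where 0 passed, 2 did with quantile normalization, 3 with median-of-ratios scaling, 4 with array weights, 4 with only the 2 stages compared and 4 without both E17 libraries; single libraries left out gave 0 to 4. From E15.5 to E17 they gave 0 to 2, from E17 to P0 2 to 4 and from E15.5 to P0 1 to 3. From E17 to P0, array weights and the fit of only 2 stages each left 1 call, and fewer of all genes were called there too. At the steps from E12.5 to E14, E15.5 to E17 and E17 to P0, each setting that gained members also called more of all genes than the main fit. The gains are therefore not read as particular to the family. From E17 to P0, Dpysl2 also passed with median-of-ratios scaling (0.29). Leaving out a library changed the differences that use its stage and, in every comparison, the estimate of the spread. Differences from E12.5 to E14 do not use E17, so they stayed the same when E17 libraries were left out. Why calls changed elsewhere was not tested.

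Differences near 0 changed sign. From E15.5 to E17 this was so for Dpysl3 with quantile normalization (0.15) and, over single libraries left out, for Dpysl2 (-0.19 to 0.068), Dpysl3 (-0.12 to 0.12), Dpysl4 (-0.16 to 0.10) and Dpysl5 (-0.00353 to 0.44). From E17 to P0 Dpysl5 was at -0.00718 with quantile normalization and at -0.087 to 0.36 over single libraries left out, and from E15.5 to P0 Dpysl2 was at -0.020 to 0.24. With synapse genes as the reference, the P0 minus E12.5 values of Crmp1, Dpysl2, Dpysl3 and Dpysl5 turned to -1.002, -1.71, -1.54 and -1.35. Over single libraries left out, the P0 minus E12.5 ratios were 0.61 to 0.80 for Crmp1 to Dpysl2, 0.33 to 0.37 for Crmp1 to Dpysl5 and -0.24 to -0.14 for Dpysl3 to Dpysl5, the last of which passed without replicate 2 of E17 (adjusted exact permutation p = 0.0333). The log2 ratio of the summed TPM was 1.90 with median-of-ratios scaling. Of 620 changes of single members across alternatives, 562 kept direction and call, 34 gained a call, 14 lost it and 10 changed sign.

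Same-numbered libraries did not deviate together: correlations of their deviations from the stage means were -0.37 to 0.11, with 1 of 10 stage pairs over 0.1. With the replicate block, 0, 4, 0 and 2 members passed at the 4 neighbouring steps, 5 from E12.5 to P0 and 3 from E15.5 to P0, as without it. With 2 libraries per stage, each library left out leaves 1, which is assumed to vary like the other stages. Gene depth is unknown, and Dpysl4, at 31.0 to 59.9 TPM, is the member on which it bears most.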
